A study of Mus musculus with 7 samples.

Results

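The secreted Wnt ligands, their Frizzled receptors and 2 families of secreted antagonists, the secreted Frizzled-related proteins (sFRP) and the Dickkopf proteins (Dkk), were followed in tumors that grew from mouse cells lacking nuclear myosin 1 (NM1). The genes were taken by symbol: every protein-coding gene of the GENCODE M21 annotation whose name begins with Wnt, Fzd, Sfrp or Dkk followed by a digit. There were 37 such genes among the 46603 in the count files: 19 ligands, 10 receptors, 4 sFRP and 4 Dkk genes. NM1 is a nuclear isoform encoded by Myo1c. The tumors came from mouse embryonic fibroblasts in which CRISPR/Cas9 had removed NM1 (NM1 KO), or from the same KO cells carrying a lentiviral NM1 with HA and V5 tags (KO+NM1), which had been selected with neomycin and checked as single clones. Both kinds of cell were injected under the skin of female nude mice aged 16 weeks, and tumors were taken at day 30, as the labels give it. The study's results text places the injection in the mammary pad, which holds fat and epithelium, and gives another day, so the site cannot be settled here. Nude mice lack a normal thymus and so most T cells, but keep their own stroma, vessels, fat and muscle, so host RNA is counted with that of the injected cells. There was no tumor of wild-type cells in the comparison, and both groups carry the deletion.

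Each tumor had been cut into 4 pieces that were homogenized separately. RNA of 3 NM1 KO pieces and 4 KO+NM1 pieces was sequenced. Nothing in the labels ties the pieces of a group to more than 1 tumor. The study's methods speak of tumors, but its reporting summary of a tumor from each kind of cell. The errors and p-values below thus measure the spread between pieces, which may be smaller than that between animals. If each group is 1 tumor, an effect of NM1 cannot be told apart from a difference between single tumors. Below, "KO tumors" and "KO+NM1 tumors" stand for the pieces of that group. The 7 libraries held 24088309 to 28326568 counts, and 3 counts corresponded to 0.0991 to 0.148 CPM, the read count scaled to library size with TMM factors. Mitochondrially encoded genes made up 1.81% to 2.14% of the counts in KO libraries and 5.11% to 18.5% in KO+NM1 libraries. Myo1c, measured as a whole gene, was at 303 ± 12.1 CPM (SD, n = 3) in NM1 KO and 408 ± 23.1 CPM (n = 4) in KO+NM1 pieces, a log2 difference of -0.43 ± 0.13 (SE, edgeR adjusted p = 0.031). The groups did not overlap for Myo1c, but counts per gene do not separate the NM1 isoform from the others.

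The pieces also differed in the cells they held, within a group as well as between groups. Markers of B and plasma cells summed to 3647 CPM in KO+NM1 piece 01 and to at most 39.9 CPM in every other piece, and lymph node stroma markers to 3551 CPM there and at most 148 CPM elsewhere. Only 4 of the 6 lymph node stroma markers listed were matched to a single gene. Of their sum in KO+NM1 piece 01, Glycam1 gave 2584 CPM, and in KO pieces Cxcl13, at 46.4 to 146 CPM, gave nearly all. Keratinocyte markers summed to 1265 CPM in KO piece 02, against 8.42 and 28.5 CPM in the other KO pieces. Skeletal muscle markers were lowest of the KO group in KO piece 01, at 2704 CPM against 21469 and 17556 CPM in KO pieces 02 and 03. Brown adipocyte markers summed to 3704 CPM in KO+NM1 piece 03 and to 423 to 940 CPM in the other KO+NM1 pieces. Between the groups, skeletal muscle markers summed to 2704 to 21469 CPM in KO and 7.07 to 28.1 CPM in KO+NM1 pieces, where Ckm, Myh4, Tnnc2 and Pvalb were at or under 3 counts throughout. White adipocyte markers ran the other way, with 47.6 to 203.5 CPM in KO and 4355 to 32761 CPM in KO+NM1 pieces. Brown adipocyte markers had 5 of 6 genes lower in KO tumors and Schwann cell markers 6 of 7, macrophage markers had 5 of 7 higher, and fibroblast markers had 4 of 8 lower. Proliferation genes summed to 1474 to 2003 CPM in KO and 13.8 to 64.8 CPM in KO+NM1 pieces. In bulk tissue, fewer cells of a type and less RNA per cell cannot be told apart, and the part of these cells in the results below was not tested.

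**Figure D1:**
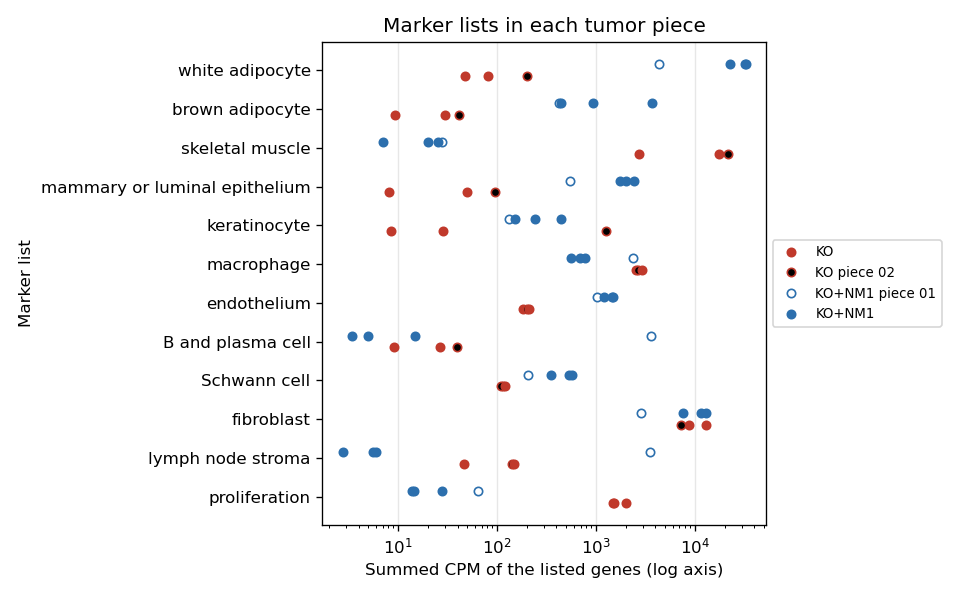
Summed level of each marker list (CPM, log axis) in every tumor piece, with NM1 KO and KO+NM1 pieces in different colors, KO piece 02 as a dark point and KO+NM1 piece 01 as an open circle. Skeletal muscle, macrophage and proliferation lists are higher in every KO piece. Adipocyte, endothelial, luminal and Schwann cell lists are higher in every KO+NM1 piece, and the B cell and lymph node lists are high in KO+NM1 piece 01.

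Wnt proteins are secreted, lipid-modified ligands that bind Frizzled receptors on the cell surface. With the co-receptors Lrp5 and Lrp6, some of these pairs stabilize β-catenin, which joins TCF/LEF factors on target genes; others act through Ror receptors and the planar cell polarity proteins without β-catenin. sFRP proteins carry a Frizzled-like domain and bind Wnts outside the cell, whereas most Dkk proteins bind Lrp5 and Lrp6. Wnt signals hold back fat cell formation, drive growth in several tumors and order the growth of skin, muscle and mammary gland.

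The windows around the starts of 4 of the genes that differed between the tumors are shown so that the sequence can be set beside the expression values given below. A RefSeq window of 300 bases, 250 before and 50 after a start (GRCm38.p6), existed for 25 of the 37 genes, in 28 windows. CTTTGAT, the core of the motif bound by TCF/LEF, was searched on both strands and TATAAA, the TATA box, on the gene's strand. Capitals mark the matches, and the sequences run 5′ to 3′ along the gene. Wnt10b was higher in KO tumors, and Fzd4, Sfrp5 and Wnt11 were lower. Wnt10b had the largest called rise, and Sfrp5 and Fzd4 the largest called falls, among genes with a single window and a mean of at least 1 CPM in either group. The Wnt11 window was chosen because it holds both motifs.
Wnt10b, chr15:98778101-98778400, minus strand: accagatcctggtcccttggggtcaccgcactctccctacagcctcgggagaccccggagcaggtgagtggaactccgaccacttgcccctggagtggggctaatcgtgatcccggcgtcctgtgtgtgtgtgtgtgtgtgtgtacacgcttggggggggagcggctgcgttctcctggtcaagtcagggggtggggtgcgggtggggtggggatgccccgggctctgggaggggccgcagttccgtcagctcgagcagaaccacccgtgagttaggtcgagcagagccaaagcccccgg
Fzd4, chr7:89404116-89404415, plus strand: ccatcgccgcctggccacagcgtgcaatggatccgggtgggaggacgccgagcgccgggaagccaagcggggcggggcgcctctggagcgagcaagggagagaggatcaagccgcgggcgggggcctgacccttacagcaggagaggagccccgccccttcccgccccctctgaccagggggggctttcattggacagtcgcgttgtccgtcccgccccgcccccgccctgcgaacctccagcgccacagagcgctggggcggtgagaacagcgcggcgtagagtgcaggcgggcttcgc
Sfrp5, chr19:42202203-42202502, minus strand: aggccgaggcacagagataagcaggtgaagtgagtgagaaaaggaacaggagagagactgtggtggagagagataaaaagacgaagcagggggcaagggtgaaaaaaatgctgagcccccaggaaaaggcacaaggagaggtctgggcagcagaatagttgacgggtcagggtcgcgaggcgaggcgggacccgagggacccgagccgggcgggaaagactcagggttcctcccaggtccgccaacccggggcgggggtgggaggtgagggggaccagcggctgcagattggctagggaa
Wnt11, chr7:98834862-98835161, plus strand: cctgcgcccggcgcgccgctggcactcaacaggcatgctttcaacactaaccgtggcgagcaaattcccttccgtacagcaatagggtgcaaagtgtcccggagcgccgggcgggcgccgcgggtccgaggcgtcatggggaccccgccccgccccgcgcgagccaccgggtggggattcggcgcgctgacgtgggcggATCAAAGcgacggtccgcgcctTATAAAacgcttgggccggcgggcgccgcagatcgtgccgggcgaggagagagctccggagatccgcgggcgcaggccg
The Wnt11 window shown, the one at the start of the gene, holds the TCF/LEF letters on the reverse strand at positions 200 to 206 and TATAAA at 222 to 227, counted from 1 at the window's 5′ end, and these matches do not overlap. A second Wnt11 window, chr7:98838595-98838894, holds neither motif. The windows of Wnt10b, Fzd4 and Sfrp5 hold neither motif. The TCF/LEF letters were in 2 of the 28 windows (Wnt5b and Wnt11), against 3.73% of all 32851 windows, and TATAAA was in 4 of 28 (Dkk2, Fzd1, Wnt11 and Dkk1), against 8.32% of all. The family's windows were rich in G and C, with a median GC content of 68.7% against 52.7% over all windows and a median of 26.5 CpG dinucleotides against 7. The Wnt11 windows had 45 and 23 CpG, and that of Sfrp5 had 15.

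Of the 37 genes, 29 passed the filter on low counts. Differences are given as log2 of NM1 KO over KO+NM1, and a gene was called where the edgeR p-value, adjusted over all 16887 genes tested, was under 0.05 and the log2 difference was at least 1 in size. By this rule 4 of the 29 were higher in KO tumors (13.8%) and 7 were lower (24.1%), against 17.1% and 20.3% of all genes tested. Both shares lay near those of all genes. For 13 of the 29 the values of one group lay wholly above those of the other, against 57% of all genes. The median log2 difference was -0.78 over the 29 and -0.00172 over all genes. The called ligands were Wnt7b, Wnt10b and Wnt2b, higher, and Wnt5a, Wnt5b, Wnt11 and Wnt9b, lower. The called receptors were Fzd9, higher, and Fzd4 and Fzd8, lower. Sfrp5 was the called antagonist, and was lower. Without KO+NM1 piece 01 the counts were 5 higher and 13 lower of 28 tested, when 3603 and 4172 of 16617 genes in all were called. Without both that piece and KO piece 02 they were 5 and 14 of 29, when 3726 and 4457 of 17079 were called.

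**Figure D2:**
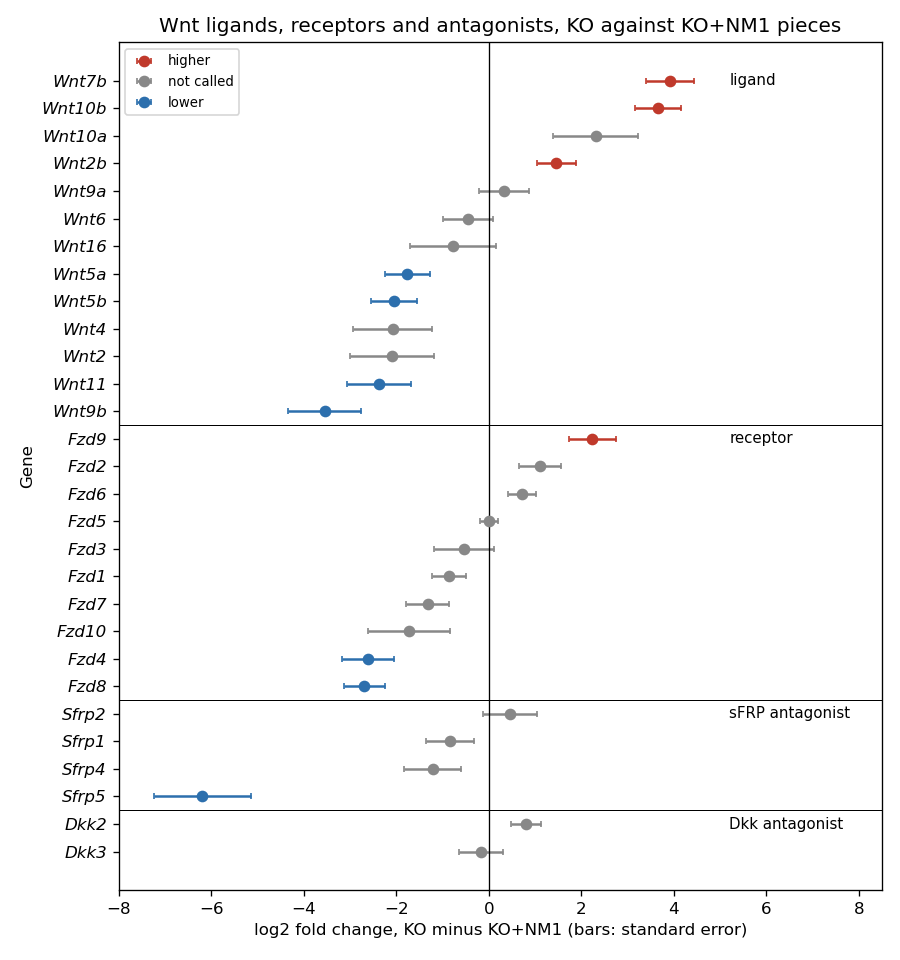
Log2 difference (NM1 KO over KO+NM1) of the 29 genes that passed the filter, grouped by role, with bars of 1 SE. Wnt7b at 3.91 is the highest and Sfrp5 at -6.19 the lowest, and called genes lie on both sides of 0 among ligands and receptors.

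Wnt7b, a ligand of the β-catenin branch with roles in lung and kidney growth and in vessels, was the most abundant ligand in KO tumors. It lies at chr15:85535437-85582473 (GRCm38, minus strand; ENSMUSG00000022382). Its level was 350.4, 212 and 239 CPM in KO pieces 01, 02 and 03, and 5.65, 18.1, 15.4 and 32.0 CPM in KO+NM1 pieces 01 to 04. The lowest KO piece was thus far above the highest KO+NM1 piece, and the log2 difference was 3.91 ± 0.52 (SE, edgeR adjusted p = 0.00158). Wnt10b, a ligand known for holding back fat cell formation and favoring bone (chr15:98770712-98778150, minus strand), was at 22.8, 28.8 and 26.5 CPM in KO pieces and at 0.584, 2.64, 3.06 and 1.93 CPM in KO+NM1 pieces. These groups were also well apart, with a log2 difference of 3.66 ± 0.49 (edgeR adjusted p = 0.00161). White adipocyte markers, 10 of 10 lower in KO tumors, moved opposite to Wnt10b. So did most brown adipocyte, endothelial, luminal and Schwann cell markers, while most skeletal muscle, proliferation and macrophage markers moved with Wnt10b. The part of any of these markers in the Wnt10b difference was not tested. Wnt2b, a β-catenin branch ligand, was low throughout, at 1.73, 2.82 and 4.39 CPM in KO and 1.20, 0.651, 1.23 and 1.23 CPM in KO+NM1 pieces. Its pieces did not overlap, but the KO values differed among themselves by more than the gap to KO+NM1, and the log2 difference was 1.46 ± 0.42 (edgeR adjusted p = 0.0234). That call was lost without KO piece 02, without KO piece 03 and without KO+NM1 piece 02.

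Wnt10a, a paralog of Wnt10b with roles in teeth, hair and skin, was at 12.2, 21.8 and 20.9 CPM in KO pieces and at 10.2, 0.773, 0.692 and 3.00 CPM in KO+NM1 pieces. The groups did not overlap, but the high value in KO+NM1 piece 01 came close to the lowest KO piece, and the log2 difference of 2.31 ± 0.92 did not pass the test (edgeR adjusted p = 0.0757). It was 3.48 without that piece (edgeR adjusted p = 0.00154). Wnt6, whose gene ends 6193 bp before Wnt10a starts on chromosome 1, was at 2.48 ± 0.911 CPM (n = 3) in KO and 3.35 ± 1.81 CPM (n = 4) in KO+NM1 pieces and did not pass the test.

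Wnt5a, Wnt5b and Wnt11, ligands that often act without β-catenin, were lower in KO tumors. Wnt5a, which steers cell movement and polarity (chr14:28504750-28527448, plus strand), was at 7.23, 11.8 and 9.28 CPM in KO pieces and at 9.85, 35.9, 41.1 and 40.7 CPM in KO+NM1 pieces. KO+NM1 piece 01 fell within the KO range while the others were well above it, and the log2 difference was -1.76 ± 0.48 (edgeR adjusted p = 0.0237). Wnt5a lost its call without KO piece 01, KO piece 03 or any one of KO+NM1 pieces 02 to 04. Its paralog Wnt5b (chr6:119432531-119544347, minus strand) was at 6.87, 5.63 and 5.32 CPM in KO and 8.21, 26.1, 22.3 and 42.1 CPM in KO+NM1 pieces. The groups did not overlap for Wnt5b, and the log2 difference was -2.05 ± 0.49 (edgeR adjusted p = 0.0149), which was lost without KO piece 03. The Wnt5b gene overlaps Fbxl14 on the opposite strand, which had 11168 counts over the 7 libraries to the 2871 of Wnt5b. The strand setting of the counting is not given in the sources used here, so reads in the overlap cannot be told apart.

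Wnt11, known from gastrulation movements and from heart and kidney, was at 0.90, 3.65 and 2.94 CPM in KO pieces and at 29.2, 7.32, 6.62 and 8.43 CPM in KO+NM1 pieces. Here KO+NM1 piece 01, the piece rich in B cell and lymph node markers, was the high one, and the log2 difference was -2.37 ± 0.69 (edgeR adjusted p = 0.034). It was -1.70 without that piece (edgeR adjusted p = 0.0146), and the call was lost on leaving out any KO piece or scaling by library size alone (edgeR adjusted p = 0.0511). Wnt9b, which sets up kidney tubules, was close to the limit of detection, with 0, 2 and 1 counts in KO and 12, 13, 10 and 8 counts in KO+NM1 libraries. The KO+NM1 level was 13.2 times that of KO, with a 95% interval of 4.23 to 66.6 that covers counting error only (3 counts against 43 in sum), and edgeR gave a log2 difference of -3.55 ± 0.79 (edgeR adjusted p = 0.00538).

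Wnt4 and Wnt2, both made in mammary and other stromal or epithelial tissue, did not pass the test. Wnt4 was at 0.967, 14.8 and 5.58 CPM in KO and 8.61, 37.0, 28.5 and 46.4 CPM in KO+NM1 pieces. These ranges overlapped, and the log2 difference of -2.08 ± 0.86 missed the threshold (edgeR adjusted p = 0.1). It was -2.51 without KO+NM1 piece 01 (edgeR adjusted p = 0.0244) and -3.31 without KO piece 02 (edgeR adjusted p = 0.0429). Mammary and luminal markers, 7 of 8 lower in KO tumors, summed to 8.17 to 94.8 CPM in KO and 543 to 2439 CPM in KO+NM1 pieces beside this, and their part was not tested. Wnt2 gave -2.09 ± 0.91 (edgeR adjusted p = 0.111), or -2.57 without KO+NM1 piece 01 (edgeR adjusted p = 0.0156). Wnt16 gave -0.78 ± 0.93 and Wnt9a 0.33 ± 0.55, both far from the threshold. Of the 6 ligands left out by the filter, Wnt3 had 4, 68 and 0 counts in KO and 3, 0, 0 and 0 counts in KO+NM1 libraries, so that 1 library, the KO piece 02 rich in keratinocyte markers, held nearly all of it. Wnt1, Wnt3a, Wnt7a, Wnt8a and Wnt8b each reached at most 0.243 CPM in any piece.

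**Figure D3:**
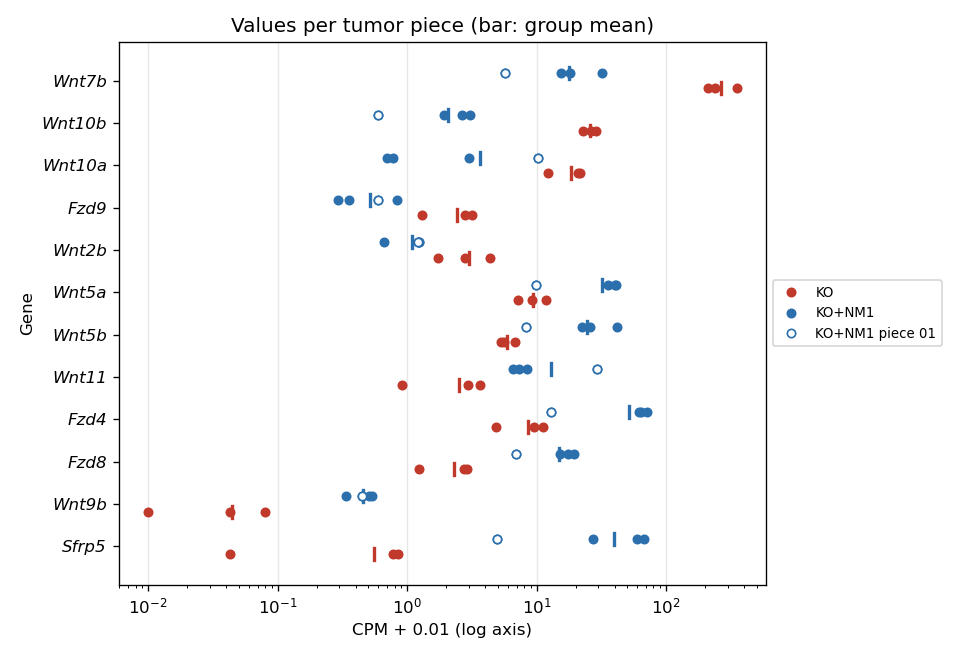
Level (CPM plus a small offset, log axis) of the called genes and of Wnt10a, which was not called, in each piece; points are NM1 KO and KO+NM1 pieces, open circles KO+NM1 piece 01 and short bars the group means. The 3 KO pieces of Wnt7b sit between 212 and 350.4 CPM and the 4 KO+NM1 pieces between 5.65 and 32.0 CPM, while for Wnt5a KO+NM1 piece 01 lies within the KO range.

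Divided by exon length, so that genes can be set beside each other, the 19 ligands summed to 90.3, 75.04 and 79.2 CPM per kilobase in KO pieces and to 23.3, 38.9, 33.2 and 53.3 in KO+NM1 pieces. The ligand sum was thus higher in each KO piece than in any KO+NM1 piece, at 81.5 ± 7.90 (SD, n = 3) against 37.2 ± 12.5 CPM per kilobase (n = 4). Wnt7b made up 79.2%, 57.8% and 61.6% of the ligand sum in KO pieces and 4.95%, 9.53%, 9.46% and 12.3% in KO+NM1 pieces. Wnt10b and Wnt10a followed in KO tumors, with mean shares of 9.52% and 9.31%. In KO+NM1 tumors the leading shares were those of Wnt5b (23.4% ± 7.09, against 2.74% ± 0.184 in KO) and Wnt4 (18.2% ± 6.33, against 2.21% ± 2.27). KO+NM1 piece 01 had its own order, with Wnt11 at 30.3% and Wnt10a at 17.8% of the ligand sum. Which cells of the tumors made each ligand was not measured.

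**Figure D4:**
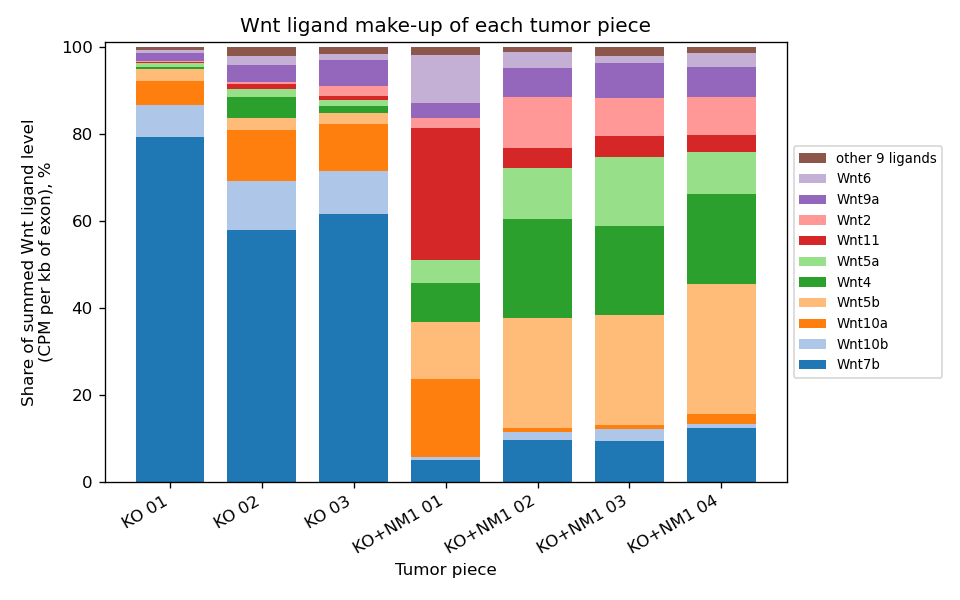
Share of each ligand in the summed ligand level (percent of CPM per kilobase of exon) in every tumor piece. Wnt7b fills 57.8% to 79.2% of each KO piece and 4.95% to 12.3% of each KO+NM1 piece.

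The Frizzled receptors differed less evenly. Fzd4, the receptor of vessels that also answers Norrin (chr7:89404355-89413134, plus strand), was at 4.87, 11.1 and 9.54 CPM in KO and at 13.0, 61.3, 70.7 and 63.6 CPM in KO+NM1 pieces. The groups did not overlap, although KO+NM1 piece 01 lay just above KO piece 02, and the log2 difference was -2.61 ± 0.57 (edgeR adjusted p = 0.0117). Endothelial markers, 6 of 6 lower in KO tumors, summed to 185 to 212 CPM in KO and 1024 to 1485 CPM in KO+NM1 pieces. KO+NM1 piece 01 was the lowest of its group for Fzd4 and for this sum. Pecam1, alone of the 6, was highest in that piece (479 CPM, against 287 to 331 CPM in the others). The white adipocyte sum was also lowest there, at 4355 CPM against 22821 to 32761 CPM. So were the brown adipocyte, luminal, keratinocyte, Schwann cell and fibroblast sums. The part of any of these markers in the Fzd4 difference was not tested. Fzd8 was at 1.23, 2.75 and 2.87 CPM in KO and at 6.93, 17.6, 19.4 and 15.2 CPM in KO+NM1 pieces. Every KO+NM1 piece was above every KO piece, and the log2 difference was -2.69 ± 0.44 (edgeR adjusted p = 0.00385). Fzd9, a receptor known from brain and bone, was higher in KO tumors, at 1.30, 2.82 and 3.17 CPM against 0.584, 0.285, 0.346 and 0.822 CPM, though low in both. These groups did not overlap, and the log2 difference was 2.24 ± 0.50 (edgeR adjusted p = 0.00901).

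The receptors that carried most of the receptor signal did not reach the call in the edgeR test. Fzd2 was at 46.2, 44.6 and 50.3 CPM in KO and 7.66, 27.8, 17.8 and 34.2 CPM in KO+NM1 pieces, with no overlap and a log2 difference of 1.11 ± 0.45 (edgeR adjusted p = 0.0778). Fzd6 was also without overlap, at 0.72 ± 0.31 (edgeR adjusted p = 0.0926). Fzd7 at -1.32 ± 0.47 (edgeR adjusted p = 0.0582) and Fzd1 at -0.86 ± 0.36 (edgeR adjusted p = 0.0915) lay on the other side. Fzd7 was called under 6 of 17 alternatives, among them DESeq2 size factors (-1.43, edgeR adjusted p = 0.0483), upper quartile scaling (-1.49, edgeR adjusted p = 0.0442), the DESeq2 Wald test (adjusted p = 0.0122) and limma voom (adjusted p = 0.000585). Fzd2 was called with library size alone (1.30, edgeR adjusted p = 0.0457). Without KO+NM1 piece 01, Fzd7 was at -1.72 (edgeR adjusted p = 0.00139) and Fzd1 at -1.21 (edgeR adjusted p = 0.0029). As shares of the receptor sum per kilobase, Fzd2 made up 33.2% ± 3.59 in KO and 10.2% ± 1.94 in KO+NM1 pieces, and Fzd7 17.9% ± 2.11 and 29.7% ± 5.78, and neither pair of ranges overlapped. Fzd3 (-0.54 ± 0.65) and Fzd10 (-1.72 ± 0.88) were not called. Fzd10 was at 0.733, 5.04 and 0.297 CPM in KO pieces, with KO piece 02 the high one, and without it the log2 difference was -3.80 (edgeR adjusted p = 0.00773). Fzd5 was at 10.9 ± 0.322 CPM in KO and 10.9 ± 1.43 CPM in KO+NM1 pieces, a log2 difference of 0.01 ± 0.19. The sign of the Fzd5 difference was negative with DESeq2 size factors and with upper quartile scaling. The summed receptor level was 38.9 ± 3.64 CPM per kilobase in KO and 56.0 ± 23.0 in KO+NM1 pieces, and these ranges overlapped.

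Among the antagonists, Sfrp5, a secreted inhibitor of Wnt5a made in fat tissue (chr19:42197971-42202252, minus strand), differed most of all 29 genes. It was at 0.767, 0.834 and 0.0330 CPM in KO and at 4.92, 67.2, 27.3 and 60.0 CPM in KO+NM1 pieces. KO piece 03 was under the level of 3 counts and every KO+NM1 piece was above every KO piece, with a log2 difference of -6.19 ± 1.04 (edgeR adjusted p = 0.00685). The white adipocyte sum was lowest of the KO+NM1 group in piece 01, with 4355 CPM, as was Sfrp5. It was 32761, 32238 and 22821 CPM in KO+NM1 pieces 02, 03 and 04. The brown adipocyte, endothelial, luminal, keratinocyte, Schwann cell and fibroblast sums were lowest in piece 01 too. The part of any of these markers in the Sfrp5 difference was not tested. Sfrp2, the most abundant sFRP in KO tumors, was at 73.7, 37.0 and 72.6 CPM in KO and 13.3, 46.4, 33.2 and 85.2 CPM in KO+NM1 pieces. These values overlapped throughout, with a log2 difference of 0.46 ± 0.58. Sfrp1 (-0.83 ± 0.52) and Sfrp4 (-1.21 ± 0.62) did not pass the test either, but without KO+NM1 piece 01 they were at -1.23 (edgeR adjusted p = 0.0244) and -1.65 (edgeR adjusted p = 0.00995). Per kilobase, Sfrp2 made up 80.7% ± 9.75 of the sFRP sum in KO pieces and 40.4% ± 7.56 in KO+NM1 pieces, and Sfrp5 0.959% ± 0.875 and 35.5% ± 12.7. Dkk2 at 0.80 ± 0.32 (edgeR adjusted p = 0.071) and Dkk3 at -0.17 ± 0.48 were not called. Dkk2 was called without KO+NM1 piece 04, in which it was high (1.10, edgeR adjusted p = 0.0117). Dkk1 and Dkk4, the former a classical inhibitor of Lrp5 and Lrp6, had at most 1 count in any library.

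The genes that act with these ligands and receptors were taken in 4 lists. Of the surface co-receptors and modulators, 26 of 33 were tested, 3 were higher in KO tumors (11.5%, against 17.1% of all genes) and 10 lower (38.5%, against 20.3%). The higher count was 1 without any one KO piece or without KO+NM1 piece 02, when 2174 to 2518 genes in all were higher. Ror2, a receptor for Wnt5a, was higher at 1.69 ± 0.41 (edgeR adjusted p = 0.0125), as were Cthrc1, a secreted protein that joins Wnt5a to Ror2 and Frizzled, at 2.26 ± 0.75 (edgeR adjusted p = 0.0415) and Znrf3, which removes Frizzled from the surface, at 1.39 ± 0.41 (edgeR adjusted p = 0.0265). The 3 steepest falls were in Tspan12, the partner of Fzd4 in Norrin signaling, at -4.88 ± 0.56 (edgeR adjusted p = 0.00154), Trabd2b, a protease that cuts Wnts, at -3.95 ± 0.61 (edgeR adjusted p = 0.00374), and Dkkl1 at -3.82 ± 0.46 (edgeR adjusted p = 0.00153). Tspan12 was at 5.83, 3.48 and 5.38 CPM in KO and 34.7, 184, 213 and 146 CPM in KO+NM1 pieces, with piece 01 the lowest of its group. This held also for Fzd4, Fzd8, Wnt5a, Wnt5b, Sfrp5, Trabd2b and Dkkl1, but not for Wnt11 or Wnt9b. Ror1 was chosen after its values were seen: it differed opposite to Ror2, at 1.03 ± 0.354 CPM in KO and 5.61 ± 1.65 CPM in KO+NM1 pieces, a log2 difference of -2.44 ± 0.36 (edgeR adjusted p = 0.00243).

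Inside the cell, the transduction list had 28 of 28 genes tested, 2 higher (7.14%, against 17.1% of all genes) and 7 lower (25%, against 20.3%). Ctnnb1, which encodes β-catenin, was at 524 ± 23.4 CPM in KO and 485 ± 78.5 CPM in KO+NM1 pieces (log2 difference 0.11 ± 0.18, edgeR adjusted p = 0.635). Tnks, a tankyrase that marks Axin for destruction, at 2.77 ± 0.29 (edgeR adjusted p = 0.000716) and Apc2, a relative of the scaffold Apc, at 2.01 ± 0.34 (edgeR adjusted p = 0.00297) were the higher ones. Frat1, which binds Gsk3, was lowest at -2.41 ± 0.52 (edgeR adjusted p = 0.00951), followed by the TCF factor Tcf7l1 at -2.29 ± 0.27 (edgeR adjusted p = 0.00114) and the co-activator Bcl9l at -1.97 ± 0.21 (edgeR adjusted p = 0.000871). In the planar cell polarity list, 15 of 16 were tested, 4 were higher (26.7%, against 17.1% of all genes) and 6 lower (40%, against 20.3%). The higher count was 2 without KO piece 01 or without KO piece 02, when 2174 and 2358 genes in all were higher. Intu (2.34 ± 0.30), Ankrd6 (2.29 ± 0.35) and Vangl2 (1.21 ± 0.34) led the higher ones, and Celsr2 (-3.66 ± 0.77), Daam2 (-2.84 ± 0.28) and Prickle3 (-2.20 ± 0.20) the lower ones.

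Of the feedback and target list, 18 of 20 were tested, 5 were higher (27.8%, against 17.1% of all genes) and 5 lower (27.8%, against 20.3%). The lower count was 3 without KO piece 01 or 03 and with scaling by library size alone, when 2884, 2959 and 2977 genes in all were lower. It was 8 without KO+NM1 piece 01, when 4172 genes in all were lower. Axin2, a feedback inhibitor that is among the most general readouts of β-catenin, was lower in KO tumors, at 10.9, 17.1 and 13.8 CPM against 21.3, 34.4, 37.6 and 34.8 CPM. The groups did not overlap, and the log2 difference was -1.20 ± 0.25 (edgeR adjusted p = 0.00826). The feedback inhibitor Nkd1 was at 2.77, 3.44 and 3.83 CPM in KO and 16.0, 18.9, 14.5 and 18.5 CPM in KO+NM1 pieces, a log2 difference of -2.34 ± 0.21 (edgeR adjusted p = 0.000529). The other lower genes were Rnf43, a Frizzled-removing ligase like Znrf3, at -1.99 ± 0.28 (edgeR adjusted p = 0.00203), the receptor Ephb3 at -1.87 ± 0.47 (edgeR adjusted p = 0.0188), and Bambi. Higher in KO tumors were Ccn4, a secreted matrix protein also called Wisp1, at 46.5, 35.5 and 49.5 CPM against 1.13, 0.773, 0.741 and 1.07 CPM, with a log2 difference of 5.55 ± 0.23 (edgeR adjusted p = 0.000185). Ccnd1, the cyclin of early G1, was at 590.3 ± 157 CPM in KO and 49.98 ± 21.6 CPM in KO+NM1 pieces, and Cd44, a hyaluronan receptor, at 298 ± 78.0 and 69.1 ± 35.9 CPM. Myc and Znrf3 completed the higher genes. Proliferation genes, 6 of 6 higher in KO tumors, moved with Ccnd1 and Myc, and their part in these differences was not tested. The TCF/LEF genes Tcf7 and Lef1, named after their values were seen, set KO+NM1 piece 01 apart. Lef1 was at 7.43, 6.99 and 7.26 CPM in KO pieces and at 6.71, 0.0407, 0 and 0.123 CPM in KO+NM1 pieces, so that piece 01, rich in B cell markers, resembled the KO pieces (log2 difference 2.06 ± 1.64, edgeR adjusted p = 0.33). Tcf7 was likewise high in piece 01 alone of the KO+NM1 pieces, with a log2 difference of 2.02 ± 1.12 (edgeR adjusted p = 0.175).

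**Figure D5:**
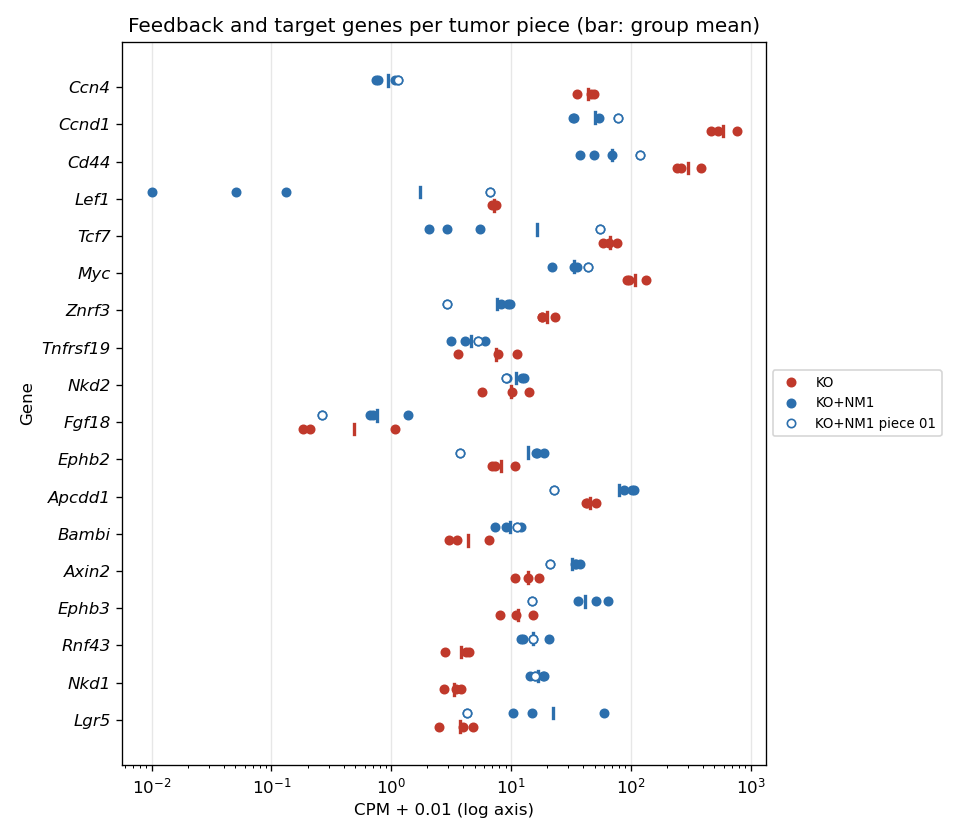
Level (CPM plus a small offset, log axis) of the tested Wnt feedback and target genes; points are NM1 KO and KO+NM1 pieces, open circles KO+NM1 piece 01 and short bars the group means. Ccn4 and Ccnd1 are higher in every KO piece, and Axin2 and Nkd1 in every KO+NM1 piece.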

How the data were processed

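Bulk RNA-seq was deposited as whole-number counts of reads per Ensembl gene, 1 file per tumor piece, from 3 NM1 KO and 4 KO+NM1 pieces. Per the labels and the study's methods, the authors trimmed reads with Trimmomatic 0.36, checked them with FastQC, aligned them with HISAT2 2.0.4 to GRCm38, sorted them with SAMtools 0.1.19 and counted them with HTSeq; the annotation release and the strand setting are not given in the sources used here. Symbols and exon lengths were taken from GENCODE M21, which matched 46091 of 46603 gene identifiers. Totals were 24088309 to 28326568 counts per library.

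Counts were filtered with filterByExpr (minimum count 10), scaled by TMM and tested with the quasi-likelihood test of edgeR 4.0.16 (R 4.3.3), KO minus KO+NM1; p-values were adjusted by the Benjamini-Hochberg method across 16887 genes. The study's thresholds, adjusted p under 0.05 and log2 difference of at least 1, defined a call. CPM are TMM-scaled, and the median log2 difference of all genes was -0.00172. The script was tested on simulated data. The 37 genes, the pathway lists and the marker lists were chosen with earlier results of these data known, so their counts are descriptions and no test was made over a list. Values are given piece by piece for the called genes at a mean of at least 1 CPM in either group, and for others where a sentence says which pieces were high; of each pathway list, the 3 called genes with the largest rise and the 3 with the largest fall at that level are named, with Ctnnb1 and Axin2 in any case. Wnt9b, Wnt3, Wnt4, Wnt10a, Fzd2, Fzd10, Sfrp2 and Ror1 were given piece values or named after their values were seen, as were Bambi, Myc, Tcf7 and Lef1. Alternatives were other scalings (DESeq2 1.42.0 size factors, library size alone, upper quartile), 2 other filters, mitochondrial genes left out, the DESeq2 Wald test, limma voom (limma 3.58.1), a replicate block, and each piece left out.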

Additional observations from a re-analysis of the deposited data

Results flagged for a closer look

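Dixon's test was applied to the KO+NM1 pieces, the one group of 4, for the levels of 60 genes (the 29 tested Wnt, Fzd, Sfrp and Dkk genes, Myo1c and the pathway genes named above), and 8 levels had a piece farther from the others than the test's 95% critical value allows; chance flags about 1 in 20. KO+NM1 piece 01 was the outlying piece for 6 of them, with gap-to-range ratios of 0.92 for Wnt11 (29.2 CPM, against 6.62 to 8.43 CPM in the other pieces), 0.834 for Wnt5a (9.85 CPM, against 35.9 to 41.1 CPM), 0.838 for Fzd4 (13.0 CPM, against 61.3 to 70.7 CPM), 0.906 for Sfrp4 (5.51 CPM, against 25.1 to 27.1 CPM), 0.936 for Tcf7 (55.7 CPM, against 2.08 to 5.51 CPM) and 0.982 for Lef1 (6.71 CPM, against 0 to 0.123 CPM). This is the piece in which B cell and lymph node stroma markers were high, and their part in these levels was not tested. Tcf7 and Lef1 were named after their values were seen, as were Ror1, Bambi and Myc, which were not flagged. The rate of 1 in 20 does not apply to genes named in that way. Wnt2b was low in KO+NM1 piece 02 (ratio 0.946; 0.651 CPM, against 1.20 to 1.23 CPM), and Dkk2 was high in KO+NM1 piece 04 (ratio 0.909; 13.5 CPM, against 6.57 to 7.20 CPM).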

How the results depend on the processing

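Wnt7b, Wnt10b, Fzd4 and Fzd8 kept their direction and call under 17 alternatives, Sfrp5 under the 16 and Wnt9b under the 13 that gave a value. The count of lower genes of the 29 was 12 with limma voom, when 3991 of 16887 genes in all were called lower. It was 14 without KO piece 02 and KO+NM1 piece 01 (chosen after seeing the data), when 4457 of 17079 were called lower. Over single pieces left out it ran from 5 to 13 of 28 or 29 tested, when 2811 to 4172 genes in all were called lower. The higher count then ran from 3 to 5, when 2174 to 3603 genes in all were called higher. Without KO+NM1 piece 01 the calls gained were Fzd1, Fzd3, Fzd7, Sfrp1, Sfrp4, Wnt2, Wnt4 and, higher, Wnt10a, and Wnt9b was not tested. Wnt2b lost its call without the filter. By adjusted p alone, 4345 genes in all were higher in KO. Of the target list, 3 were lower with library size alone (2977 genes in all) and 8 without both of those pieces (4457 in all). Over single pieces this count ran from 3 (without KO piece 01 or 03, 2884 and 2959 in all) to 8 (without KO+NM1 piece 01, 4172 in all). Higher planar polarity genes fell to 2 without KO piece 01 or 02, from 4. Higher surface modulators fell to 1 without any KO piece or KO+NM1 piece 02, from 3. Without these single pieces, 2174 to 2518 genes in all were higher, from 2882. Scaling moved the median of all genes to -0.102 (DESeq2 size factors), 0.166 (library size alone) or -0.159 (upper quartile).

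The piece numbers did not pair the pieces (correlations of deviations 0.0716, 0.0966 and -0.0193). With the piece number as a replicate block, 3 of the 29 were higher and 5 lower, when 2437 and 2493 of 16887 genes in all were called. Wnt2b, Wnt5a, Wnt5b, Wnt11 and Fzd9 then lost their call, and Dkk2 (1.11, edgeR adjusted p = 0.0399) and Wnt4 (-2.25, edgeR adjusted p = 0.0272) gained one. The DESeq2 Wald test and limma voom also called Wnt10a, higher, and Wnt2, Wnt4 and Fzd7, lower, and limma voom Fzd10 and Sfrp4, lower. Signs turned only for genes not called, and the cause was not tested. Wnt9a (-0.22 to 0.58 over single pieces left out) was at -0.22 without KO piece 03 and -0.08 without KO+NM1 piece 01. It was at -0.04 without both KO piece 02 and KO+NM1 piece 01. Wnt16 was at 0.02 under the block and Wnt6 at 0.02 under limma voom. Dkk3 (-0.51 to 0.33 over single pieces) was at 0.30 under the block and 0.33 without KO+NM1 piece 04. Fzd5 was at -0.10 with DESeq2 size factors, -0.16 with the upper quartile, -0.09 without the filter and -0.04 with at least 10 counts in every library. It was at -0.10 with DESeq2, -0.11 with limma voom and -0.18 without both KO piece 02 and KO+NM1 piece 01. Without single pieces Fzd5 was between -0.21 and 0.04 (-0.12, -0.09 and -0.12 without KO pieces 01, 02 and 03, -0.01 without KO+NM1 piece 03). Genes under about 1 CPM, such as Wnt9b, rest on few counts.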
